A study of Mus musculus and Mus musculus
Rattus norvegicus with 30 samples.

Results

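Mouse embryonic stem cells (mESCs) carrying a mutant Cdx2 transgene were compared with mESCs carrying an intact one. The mutant set held 14 RNA-seq libraries and the intact set 4, which were chosen by their sample labels and made up 18 of the 30 samples of the series. Each transgene coded for a Flag-tagged Cdx2 under a Tet-On promoter, which is transcribed only in the presence of doxycycline (DOX), and was brought into the cells with a lentivirus. The intact lines overexpressed (OE) mouse Cdx2 (mCdx2) or rat Cdx2 (rCdx2). The 7 mutant lines overexpressed rCdx2 in which amino acids of the DNA binding domain were given the state found in mouse. Change 1 replaces a tyrosine by a phenylalanine, change 2 an alanine by a serine, and change 3 removes an asparagine. The digits of R1, R2, R3, R12, R13, R23 and R123 name the changes, and R123 has the mouse state at each of them. Each construct is its own cell line with 2 libraries, so the line and not the library was the unit of the test, 2 intact against 7 mutant lines. How long the mutant lines were given DOX, and whether the lines were made, grown or sequenced at the same time as the intact ones, is not given in the sources used here. Whatever sets the intact lines apart as cell lines and what sets their constructs apart cannot be told apart.

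Cdx2 is a homeobox transcription factor. In the embryo it acts in the trophectoderm, the layer that gives rise to the placenta, where it opposes the pluripotency factor Oct4 (Pou5f1), and later it patterns the posterior body axis through the Hox clusters and maintains the intestinal epithelium. Forced expression of Cdx2 in ES cells turns on trophoblast genes while the pluripotency network declines.

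The libraries held 12967233 to 24315929 counts in the intact lines and 12698443 to 20638317 in the mutant lines, and 74960057 and 94686029 in 2 libraries of wild-type (WT) mESCs, which served as reference. The unit CPM is the count of a gene relative to the TMM-scaled size of its library, without regard to gene length. Cdx2 itself was at 97.7 and 126 CPM in the mCdx2 libraries and at 70.5 and 66.7 CPM in the rCdx2 libraries. In the 14 mutant libraries it ranged from 37.1 to 146 CPM with a median of 63.6 CPM, and in WT cells it was at 1.3 CPM. The intact libraries lay within the range of the mutant ones, and the log2 fold change of intact against mutant lines was 0.26 ± 0.30 (SE), with an adjusted p of 0.492. This and all other adjusted p values are from the quasi-likelihood test of edgeR after Benjamini-Hochberg adjustment. The level went with change 3 and with the replicate. It was 103 to 107 CPM in R1, R2 and R12 and 50.5 to 69.4 CPM in the 4 lines with change 3, against 112 CPM in mCdx2 and 68.6 CPM in rCdx2. With replicate 2 alone Cdx2 was called higher in the intact lines (log2 0.97, adjusted p 0.00937), as it was against the 4 lines with change 3 alone (log2 0.68, adjusted p 6.25e-05), while with replicate 1 alone the log2 difference was −0.31. The part of the Cdx2 level in the differences between the sets cannot be read from these lines alone, and with that level as a covariate 10119 genes were called. The rat transgenes were also measured by alignment to the mouse gene, and the level sums transgene and endogenous transcripts. Of its paralogues, Cdx1 was at 22.5 to 31.3 CPM in the intact and at 11.7 to 16.3 CPM in the mutant libraries, against 58.7 CPM in WT.

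The intact lines stood apart from every mutant line over a large part of the transcriptome. Of 16357 genes tested, 8278 (50.6%) had an adjusted p under 0.05, 4287 (26.2%) of them higher and 3991 (24.4%) lower in the intact lines. The split was even at any fold, whereas of the 2463 genes (15.1%) that also differed over 2-fold, 1828 (11.2%) were higher and 635 (3.88%) lower. In 2406 of these 2463 genes both intact lines lay outside the range of the 7 mutant lines, as they did for 56.8% of all genes tested (above in 28.2% and below in 28.6%). When the rCdx2 line was left out 5277 genes were called, and 5994 when the mCdx2 line was left out, and the lone intact line is then assumed to vary like the mutant lines.

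Of the 8278 genes, 5697 were called in the same direction on replicate 2 alone and 6646 on replicate 1 alone. The fold change had the opposite sign, called or not, in 340 of them on replicate 2 alone and in 62 on replicate 1 alone. Of the 2463 genes over 2-fold, the sign was opposite in 6 on replicate 2 alone and in 0 on replicate 1 alone.

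The first principal component of the 18 libraries carried 46.7% of the variance and separated the intact libraries, with scores of 66.2 to 80.5, from the mutant ones, with scores of −29.8 to −8.28. The second carried 16.4% and ordered the mutant lines by change 3: R1, R2 and R12, which lack it, had scores of −35.9 to −25.2, R3 was at 6.05 and 6.08, and R13, R23 and R123 were at 23.9 to 26.8. Across genes, the correlation of log2 CPM was 0.9858 to 0.9931 between libraries of the 2 intact lines, 0.9872 to 0.9915 between the 2 libraries of a single line, and 0.9528 to 0.9697 between an intact and a mutant line.

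**Figure D1:**
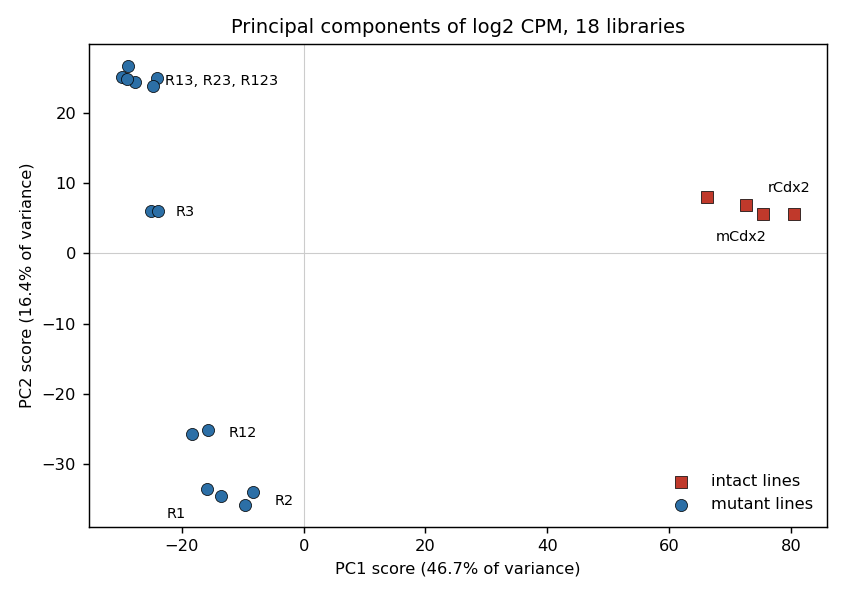
Principal component scores of the 18 libraries, from log2 CPM of the genes tested (squares: intact lines; circles: mutant lines; 2 points a line). The 4 intact libraries have PC1 scores of 66.2 to 80.5 and the 14 mutant libraries lie at −29.8 to −8.28, split along PC2 by change 3.

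R123 has the same states at the altered positions as mCdx2, and in the transcriptome it stood with the other mutants. When each line in turn was left out and the genes over 2-fold were called on the other 8 lines, the left-out line was nearer to its own set in 87.0% to 96.9% of these genes. For R123 this held in 2277 of 2406 genes (94.6%), for mCdx2 in 92.6% of 2244 and for rCdx2 in 95.2% of 1917. On a scale from 0 (the mean of the other mutant lines) to 1 (the mean of the intact lines), the median place was −0.01 for R123, 0.88 for mCdx2 and 1.04 for rCdx2. The highest among the mutant lines was R2, at 0.15.

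Among genes that rise with Cdx2, the intact lines lay further from WT. In the mean of the 9 induced lines against WT, 4279 of 16000 genes (26.7%) were called over 2-fold, of which 2114 (13.2%) rose and 2165 (13.5%) fell. Over the risen genes the median log2 fold change against WT was 1.94 in mCdx2 and 1.98 in rCdx2, and 1.35 (R1) to 1.61 (R123) in the mutant lines. Over the fallen genes the intact lines, at −1.75 and −1.79, lay among the mutant ones, at −1.83 to −1.66. The intact lines themselves took part in choosing these genes, and all lines share the WT libraries, so these medians are a description.

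**Figure D2:**
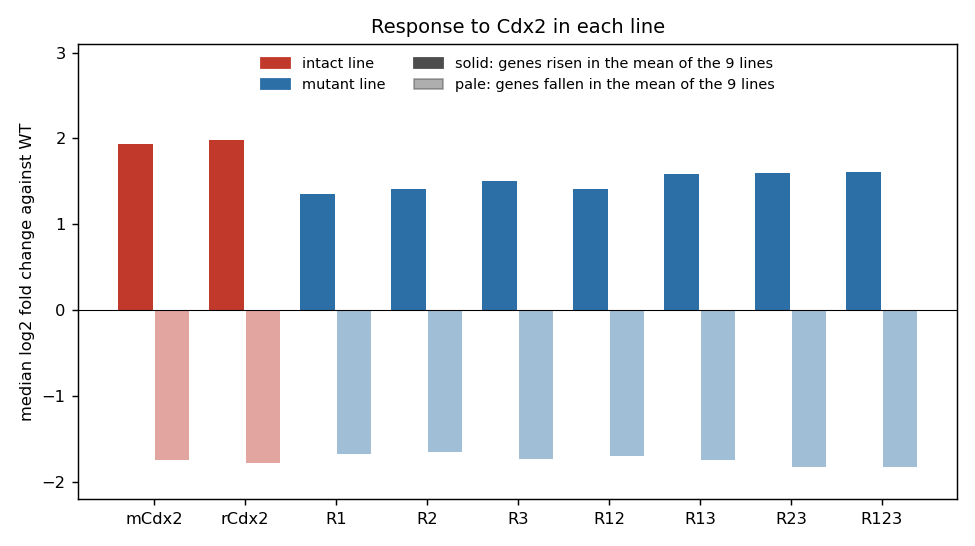
Median log2 fold change of each line against WT over the genes that rose (solid bars) or fell (pale bars) in the mean of the 9 induced lines (red: intact lines; blue: mutant lines). The risen genes reach 1.94 and 1.98 in the intact lines against 1.35 to 1.61 in the mutants, while the fallen genes overlap.

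Of the 2114 risen genes, 891 (42.1%) were higher and 289 (13.7%) lower in the intact than in the mutant lines. Of the 11720 genes not called over 2-fold against WT, 24.1% were higher and 28.4% lower. The intact lines took part in choosing the risen genes, so these shares are a description as well. Being higher in the intact lines did not always mean a stronger rise. Of the 1828 genes higher over 2-fold, 968 (53%) lay further from WT in the intact lines, 677 (37.0%) were above WT in the intact and below it in the mutant lines, and 183 (10.0%) were below WT in both sets and further from it in the mutants. Of the 635 genes lower over 2-fold, 255 (40.2%) lay further below WT in the intact lines and 262 (41.3%) were on opposite sides of WT. In the remaining 118 (18.6%) the mutants lay further from WT.

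Genes of the trophoblast were higher in the intact lines. Each count of list genes here and below stands beside the 26.2% of all genes tested that were higher and the 24.4% that were lower. Over 2-fold these shares were 11.2% and 3.88%. The list counts include genes with few counts in the mutant lines, which entered the test through their level in the intact lines. The calls of such genes are no support. Of 22 trophoblast stem cell genes tested, 12 were higher and 2 lower, and 9 of the 12 were higher over 2-fold, with a median log2 difference of 0.46 against −0.01 over all genes tested. Gata2, a transcription factor of the trophoblast giant cell lineage, was at 74.8 and 74.3 CPM in mCdx2, at 100 and 107 CPM in rCdx2, and at 11.2 to 39.0 CPM (median 17.7) in the mutant libraries. The sets did not overlap, and the level in the intact lines was 4.08-fold higher (log2 2.03 ± 0.35 SE, adjusted p 0.000691). Gata3, which acts beside Cdx2 in trophectoderm specification, was at 13.9 to 17.5 CPM against 1.86 to 5.35 CPM. The simple-epithelium keratins of the trophectoderm followed. Krt18 was at 228 to 343 CPM in the intact and at 30.2 to 88.9 CPM in the mutant libraries, 5.49-fold higher (log2 2.46 ± 0.27, adjusted p 2.54e-05), and its partner Krt8 was 4.50-fold and Krt7 4.17-fold higher. Fgfr2, the receptor for the Fgf4 on which trophoblast stem cells depend, was 3.34-fold higher. Ascl2, a regulator of spongiotrophoblast, was 2.54-fold higher, with an adjusted p of 0.0212 that was lost without the rCdx2 line. Elf5 and Eomes, a pair of factors that mark established trophoblast stem cells, did not pass the test. Elf5 stayed at 0.0645 to 0.542 CPM in the intact and at 0 to 0.394 CPM in the mutant libraries, and Eomes at 3.08 to 4.96 and at 3.82 to 6.0 CPM.

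The difference was larger for genes of differentiated trophoblast, of which 12 of 14 tested were higher, 10 of them over 2-fold, and 1 lower, with a median log2 difference of 2.35. Pcdh12, among the 12, held at most 3 counts in a mutant library and entered the test through the intact lines. Dlx3, a homeobox gene needed in the labyrinth, was at 9.68 and 10.4 CPM in mCdx2, at 15.5 and 16.4 CPM in rCdx2, and at 0.353 to 1.98 CPM (median 0.833) in the mutants, an 11.7-fold difference (log2 3.55 ± 0.36, adjusted p 1.75e-05). Gcm1, which drives the branching of the labyrinth, was at 19.3 to 32.9 CPM against 2.67 to 6.79 CPM. Neither gene overlapped between the sets. Phlda2 and Cdkn1c, imprinted genes that restrain placental growth, were 6.06-fold and 6.43-fold higher, and Peg10, an imprinted gene required for the placenta, was 2.99-fold higher, a call that was lost without the rCdx2 line. The summed level of this list was 5250 to 6990 CPM in the intact and 1260 to 3620 CPM in the mutant libraries, most of it from Peg10. Of the 12 higher genes, 4 lie on chromosome X (Plac1, Rhox5, Rhox6 and Rhox9), whose genes were higher in general, as given further on, and 8 lie elsewhere. Rhox5 hardly differed in replicate 2 (log2 0.04). Within the mutant lines these genes followed change 3, as did the Cdx2 level, and the parts of each cannot be told apart in these lines. The median log2 level of the list against WT was 1.55 to 1.74 in R1, R2 and R12 and 0.66 to 0.92 in the 4 lines with change 3, and the intact lines were at 3.24 and 3.56.

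**Figure D3:**
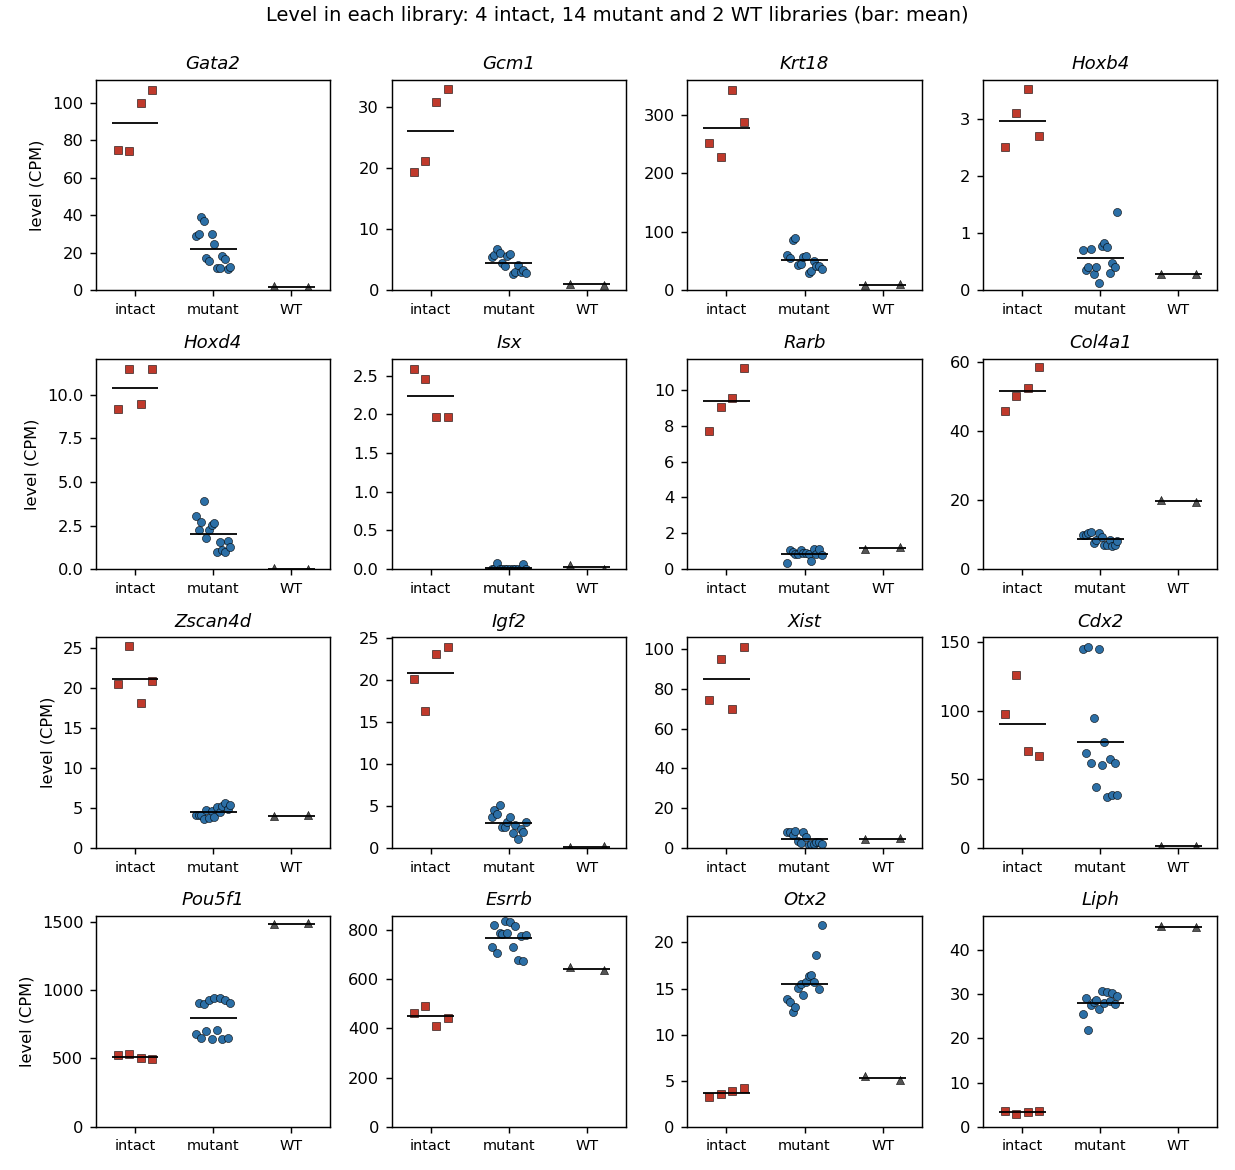
Level in CPM of 16 genes in each of the 4 intact (squares), 14 mutant (circles) and 2 WT libraries (triangles), with the mean of each set as a bar and a linear axis from 0. Of these genes, all but Cdx2 separate the intact from the mutant libraries without overlap. The genes were picked from those named in the text. At the level of lines, both intact lines lay outside the range of the 7 mutant lines in 56.8% of all genes tested.

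Hox genes of the Hoxa and Hoxd clusters were higher in the intact lines. Of the Hoxa cluster 8 of 10 genes tested were higher and none lower, and of the Hoxd cluster 5 of 8 with none lower. Hoxd1 and Hoxd3, among the 5, held few counts in the mutant lines and entered the test through the intact lines. Of the Hoxb cluster 2 of 8 were higher, near the 26.2% of all genes tested, and none lower. Both were over 2-fold, and the median log2 difference of the cluster was 1.27. Its median log2 level against WT spread from 0.3 to 2.06 among the mutant lines. The Hoxc cluster was divided, with 3 of 9 higher and 3 lower. Hoxd4, which helps to pattern the hindbrain and neck region, was at 9.18 and 11.5 CPM in mCdx2, at 9.48 and 11.5 CPM in rCdx2, and at 0.959 to 3.92 CPM (median 2.02) in the mutants, against 0.033 CPM in WT. The sets did not overlap, and the level in the intact lines was 4.94-fold higher (log2 2.30 ± 0.31, adjusted p 0.000132). Hoxb4, at 2.5 to 3.51 CPM against 0.129 to 1.37 CPM, was 5.22-fold higher. Hoxa9, at 14.8 to 23.4 CPM against 10.1 to 16.8 CPM, differed by 1.34-fold with overlapping libraries, and its call was lost without the mCdx2 line. Hoxc12 ran the other way, at 0.626 to 1.35 CPM in the intact and at 2.48 to 5.36 CPM in the mutant libraries, a log2 difference of −2.11 ± 0.25. Hoxa7, which did not pass, was at 10.9 to 16.2 CPM against 8.92 to 28.4 CPM. Hox genes that lie next to each other share transcripts and similar sequence, and counts per gene are uncertain to that degree.

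Of 13 intestinal epithelium genes tested, 7 were higher, 4 of them over 2-fold, and 1 was lower. Isx and Krt20 are among the 4 and entered the test through their level in the intact lines. By summed level the list was lower in the intact libraries, at 547 to 584 CPM against 605 to 676 CPM. WT was at 582 and 587 CPM. Of all genes tested, 26.2% were higher, 11.2% over 2-fold, and 24.4% lower. Isx, an intestine-specific homeobox gene (ENSMUSG00000031621, chromosome 8, 74873173 to 74893506, plus strand), was at 2.59 and 2.45 CPM in mCdx2 and at 1.96 and 1.97 CPM in rCdx2, whereas no mutant library held more than 1 count and the 14 together held 2. Against a floor of 3 counts per library this was at least 12.1-fold higher in the intact lines. Krt20, a keratin of the differentiated intestinal villus, was at 2.26 to 3.74 CPM against 0 to 0.442 CPM. It was called higher, but it entered the test through its level in the intact lines and held 0 to 6 counts in a mutant library, so no fitted fold change is given. Both genes were separate from the mutants at a low absolute level. Vil1, a structural protein of the brush border, did not pass, at 1.46 to 2.21 and at 0.847 to 2.21 CPM, and the adhesion molecule E-cadherin (Cdh1) was lower, at 312 to 325 CPM against 431 to 489 CPM. Among 24 genes of epithelial junctions and keratins, 13 were higher and 4 lower. Dsp, which anchors keratins at desmosomes, was 3.28-fold higher.

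The ChIP-seq peaks near these genes came from mCdx2-OE and rCdx2-OE cells, 1 library each, and therefore show where intact Cdx2 bound. For 4 genes that were higher in the intact lines, 200 bases around the centre of the peak with the most reads in the 60 kb centred on the start site are shown, because they are the most strongly bound DNA near a gene that the mutants express less. The Krt20 peak had the most reads of the 4, 440 in both libraries together, where the median peak held 88. Capitals mark TTTATNG, the core of the Cdx motif, read on either strand. The sequences are from the plus strand of GRCm38.

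Krt20, chr11:99436761-99436960, intron, 1290 bases after the start site: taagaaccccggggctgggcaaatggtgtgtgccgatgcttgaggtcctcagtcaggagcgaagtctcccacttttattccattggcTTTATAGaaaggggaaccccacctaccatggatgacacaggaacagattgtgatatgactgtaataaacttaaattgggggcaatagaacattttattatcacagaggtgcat
Stra8, chr6:34914081-34914280, intergenic, 5983 bases before the start site: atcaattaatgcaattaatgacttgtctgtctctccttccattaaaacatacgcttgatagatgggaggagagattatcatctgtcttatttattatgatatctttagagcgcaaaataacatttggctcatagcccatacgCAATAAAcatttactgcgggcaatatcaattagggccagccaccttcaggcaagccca
Gata2, chr6:88216950-88217149, intergenic, 23158 bases after the start site: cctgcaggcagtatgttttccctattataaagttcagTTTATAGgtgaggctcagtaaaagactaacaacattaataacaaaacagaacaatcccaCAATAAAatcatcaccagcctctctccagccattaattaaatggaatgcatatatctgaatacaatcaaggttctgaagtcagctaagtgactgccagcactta
Rarb, chr14:16823826-16824025, intergenic, 4769 bases before the start site: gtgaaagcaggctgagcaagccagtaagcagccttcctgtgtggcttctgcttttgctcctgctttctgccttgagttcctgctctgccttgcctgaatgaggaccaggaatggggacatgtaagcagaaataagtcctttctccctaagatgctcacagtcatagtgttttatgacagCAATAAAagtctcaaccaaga

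The Gata2 window held the motif at 2 places and the other windows shown at 1. Not every gene higher in the intact lines had it. The peak chosen in the same way for Isx, with 404 reads, held no match, that for Gata3, with 51 reads, held 1, and that for Hoxd4, with 374 reads and inside an exon, held 4. Of 91665 ChIP-seq peaks, 45.4% held it in a window of the same length, so these matches are a description. A peak near the start site was not more frequent among the genes that the intact lines expressed more. In this window, 69.8% of the 1811 genes higher over 2-fold that had a position had a Cdx2 peak, against 78.3% of the 621 lower ones and 76.8% of all 16133. The genes higher over 2-fold were weakly expressed, with a median of 21.7 counts per library against 262 over all genes, and the part of expression level in this share was not tested. Chromatin showed the opposite order. An ATAC-seq peak that opened over 2-fold in mCdx2-OE against WT cells lay near 46.9% of the higher genes, 22.1% of the lower genes and 36.7% of all. A peak that closed lay near 32%, 67.6% and 50.2%. Without chromosome X the shares with an opened peak were 43.8%, 21.7% and 35.1%. These ATAC-seq libraries, 1 of WT and 1 of an intact line, held no mutant cells.

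Pluripotency genes were lower in the intact lines. Of 11 general pluripotency genes tested, 8 were lower and none higher, with a median log2 difference of −0.63, and of 20 naive pluripotency genes 12 were lower and 1 higher (median −0.42). Pou5f1 was at 525 and 530 CPM in mCdx2, at 501 and 498 CPM in rCdx2, and at 641 to 941 CPM (median 805) in the mutants, against 1480 CPM in WT. It lay below WT in all lines and further in the intact ones, without overlap between the sets, and the mutant libraries separated by replicate, at 641 to 710 CPM in replicate 1 and at 900 to 941 CPM in replicate 2 (log2 −0.66 ± 0.04, adjusted p 1.08e-06). Sox2, its partner on DNA, was at 203 to 261 CPM against 264 to 366 CPM, and Tdgf1, a co-receptor of Nodal, at 261 to 298 CPM against 431 to 671 CPM. All 8 called general pluripotency genes lay further from WT in the intact lines. The naive network was not arranged in this way. Esrrb, an orphan nuclear receptor of the naive state, was at 411 to 490 CPM in the intact and at 672 to 834 CPM in the mutant libraries, on either side of the 643 CPM of WT. Klf4 and Tfcp2l1 were above WT in every line and higher in the mutants, with Tfcp2l1 at 661 to 766 CPM in the intact, 857 to 1060 CPM in the mutant and 453 CPM in the WT libraries. Nanog did not pass, at 716 to 925 CPM and at 683 to 967 CPM. Otx2, a factor of the formative epiblast, was at 3.21 to 4.16 CPM in the intact and at 12.5 to 21.9 CPM in the mutant libraries (log2 −2.08 ± 0.16, adjusted p 2.83e-06), with WT, at 5.32 CPM, between them.

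Of 21 primitive streak and posterior mesoderm genes, 3 were higher and 4 lower. Cyp26a1 and Wnt3, among the 3, entered the test through their level in the intact lines. T, the streak gene Brachyury, did not pass, at 0.231 to 0.542 CPM and at 0.207 to 0.938 CPM. Sp5, a direct target of Wnt signalling, was lower, at 1.48 to 2.77 CPM against 4.21 to 20 CPM.

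Genes of the retinoic acid pathway were higher in the intact than in the mutant lines, but by summed level both sets lay below WT. The sum was 130 to 159 CPM in the intact, 67.2 to 87.1 CPM in the mutant and 294 and 292 CPM in the WT libraries. Among 9 called genes, 3 lay further from WT in the intact lines, 1 in the mutants, and 5 on opposite sides of WT. Retinoic acid signals through nuclear receptors that switch on their own feedback, so Rarb, Cyp26a1 and Stra8 report its activity in many cells. Of 15 genes tested, 8 were higher, 7 of them over 2-fold, and 1 lower, beside 26.2% higher and 11.2% higher over 2-fold among all genes tested. Cyp26a1 is among the 7, but it entered the test through its level in the intact lines, so its call is no support. Stra8, the gateway gene to meiosis, was at 18.8 and 14.8 CPM in mCdx2, at 29.5 and 21.6 CPM in rCdx2, and at 0.111 to 1.66 CPM (median 0.734) in the mutants, the largest rise among genes with at least 50 counts per library (33.2-fold, log2 5.05 ± 0.35, adjusted p 1.43e-06). It was highest in WT, at 59.0 CPM, so it lay below WT in all lines and furthest in the mutants. Rarb, a retinoic acid receptor, was at 7.68 to 11.2 CPM against 0.353 to 1.11 CPM, with WT at 1.20 CPM beside the mutants. Cyp26a1, which degrades retinoic acid, was at 1.35 to 2.43 CPM against 0 to 0.435 CPM, and Stra6, a receptor for retinol uptake, was 9.54-fold higher.

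Extracellular matrix and primitive endoderm genes were higher as well. Of 21 primitive endoderm genes, 11 were higher and 1 lower, and of 20 collagens and laminins 12 were higher and 3 lower. Col6a1 and Col1a2, among the 12, held few counts in the mutant lines and entered the test through the intact lines. Col4a1 and Col4a2, a head-to-head gene pair for the basement membrane collagen, moved together. Col4a1 was at 45.6 to 58.3 CPM in the intact and at 6.77 to 10.8 CPM in the mutant libraries (log2 2.56 ± 0.14, adjusted p 3.06e-07), with WT at 19.6 CPM, and Col4a2 was 7.36-fold higher. Lamb1 was 2.40-fold higher and Lama1, another laminin chain, was lower by a log2 of −0.56 ± 0.08. Among the lineage genes, Foxa2, a forkhead factor of endoderm, was at 0.292 to 0.710 CPM against 0 to 0.282 CPM. It was called higher, but it held a mean of 3.89 counts per library. Because it entered the test through its level in the intact lines, no fitted fold change is given. Pdgfra, a growth factor receptor of primitive endoderm, was 2.27-fold higher (adjusted p 0.00663) with overlapping libraries. The call of Foxa2 was lost without either intact line, and that of Pdgfra without the rCdx2 line and without replicate 1. Gata6 was at 4.80 to 7.23 CPM against 2.82 to 5.51 CPM, an overlap, and its call was lost without either intact line. Sox17 did not pass, at 0.209 to 0.771 and at 0.221 to 1.07 CPM. Fibroblast markers moved with these genes. Their summed level over 12 genes was 44.6 to 62.6 CPM in the intact, 11.7 to 15.3 CPM in the mutant and 61.7 to 62.3 CPM in the WT libraries, with 6 of 8 tested higher and none lower. Acta2 (17.1-fold), Tagln (16.6-fold), Pdgfrb (4.64-fold) and Fbn1 carried it, while Lum and Dcn held 0 and 1 count in all 18 libraries, Col3a1 held 4 counts in the intact and 1 in the mutant libraries, and Col1a1 did not pass. Their part in the matrix genes was not tested.

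Genes of further lists differed too, and some of them also responded to Cdx2. In the mean of the 9 lines against WT, 9 of the imprinted genes rose and 3 fell over 2-fold. Over all genes tested in the intact against the mutant lines, 26.2% were higher and 24.4% lower. Of 17 genes of the two-cell-like state, a rare state of ES cells, 14 were higher over 2-fold and 1 lower, while the summed level of the list, 289 to 352 CPM against 275 to 330 CPM, overlapped. The 14 include genes such as Tdpoz4 and Duxf3, which held few counts in the mutant lines and entered the test through the intact lines. Zscan4d was at 20.5 and 25.2 CPM in mCdx2, at 18.1 and 20.8 CPM in rCdx2 and at 3.59 to 5.61 CPM in the mutants (log2 2.19 ± 0.13, adjusted p 4.35e-07), and the Zscan4 copies share reads, so single members are uncertain. Zfp352 was 10.6-fold higher. Of 22 germline genes 13 were higher and 3 lower. Of 30 imprinted genes 17 were higher, 15 over 2-fold, and 5 lower. H19 was at 4660 to 6180 CPM in the intact and at 766 to 2100 CPM in the mutant libraries, and Igf2, its reciprocally imprinted neighbour, at 16.3 to 23.9 CPM against 1.11 to 5.13 CPM, with WT at 0.135 CPM. The maternally expressed Meg3 and Rian ran the other way, with Rian at 358 to 424 CPM against 606 to 772 CPM. Of 20 p53 targets 14 were higher, 4 of them over 2-fold, and 1 lower. Mdm2, the ubiquitin ligase of p53, was at 207 to 259 CPM against 141 to 182 CPM. Of 24 cholesterol synthesis genes 13 were higher and none lower, 1 over 2-fold. Of 25 cyclins, inhibitors and replication genes 5 were higher and 11 lower, with Ccnd1 at 26.8 to 31.3 CPM against 50.2 to 91.5 CPM. Of 13 mitochondrially encoded genes 6 were lower, and mt-Co1 was at 9510 to 15300 CPM against 19800 to 25700 CPM.

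**Figure D4:**
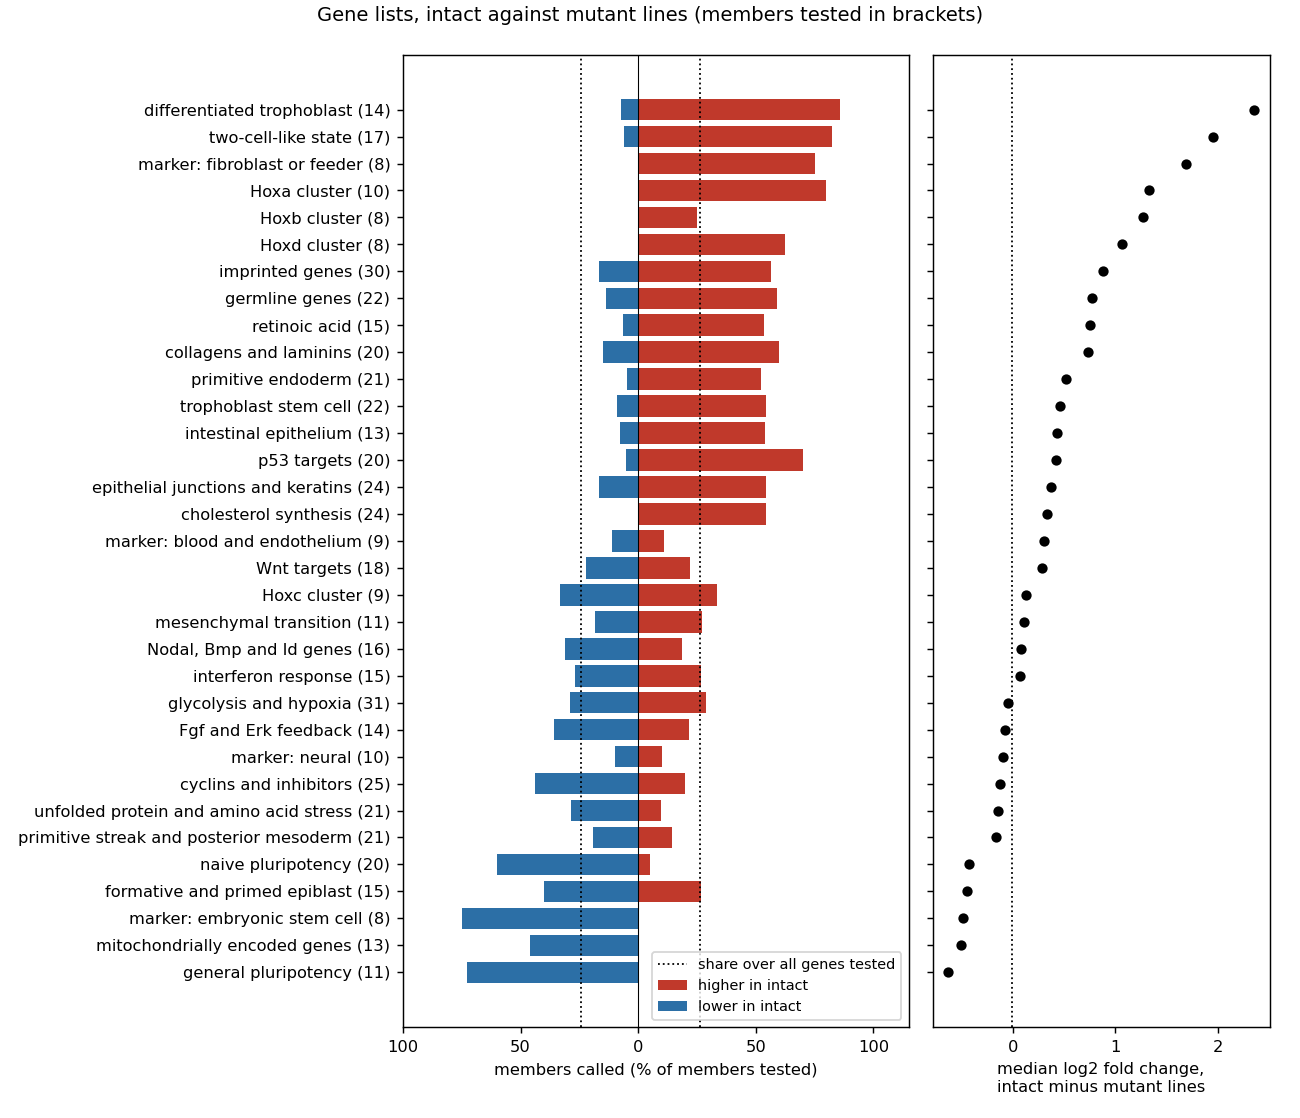
Share of the tested members of each gene list with over 2 tested members that were called higher (red, to the right) or lower (blue, to the left) in the intact lines, with dotted lines at the 26.2% and 24.4% of all genes tested, and the median log2 fold change of each list at the right. Differentiated trophoblast (12 of 14 higher) stands at one end and general pluripotency (8 of 11 lower) at the other.

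By genes called, the other gene lists, markers apart, were divided between both directions, as were all genes tested, of which 26.2% were higher and 24.4% lower. Of 15 formative and primed epiblast genes 4 were higher and 6 lower, of 18 Wnt targets 4 and 4, of 14 genes of Fgf and Erk feedback 3 and 5, and of 16 Nodal, Bmp and Id genes 3 and 5. Of 31 glycolysis and hypoxia genes 9 were higher and 9 lower, of 21 genes of the unfolded protein and amino acid stress response 2 and 6, of 15 interferon response genes 4 and 4, and of 11 genes of mesenchymal transition 3 and 2. Summed levels of some lists were lower in the intact libraries without overlap. Wnt targets were at 336 to 359 against 502 to 550 CPM, and Fgf and Erk feedback at 460 to 523 against 618 to 796 CPM. Mesenchymal transition was at 1890 to 2100 against 2250 to 3190 CPM. The unfolded protein list was at 3630 to 4090 against 4140 to 4630 CPM, and the interferon list at 192 to 234 against 239 to 279 CPM. The sums of the formative, glycolysis and Nodal lists overlapped. Markers of other cell types moved little apart from those of fibroblasts. Of 10 neural markers 1 was higher and 1 lower, with summed levels of 65.7 to 83.9 CPM in the intact and 64.2 to 92.8 CPM in the mutant libraries. Of 9 blood and endothelium markers 1 was higher and 1 lower, and their sum, most of it Pecam1, was 110 to 126 CPM against 131 to 219 CPM. Of 8 ES cell markers 6 were lower and none higher, and their sum, 3210 to 3760 CPM against 3960 to 5290 CPM, did not overlap.

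Chromosome X was higher as a whole in the intact lines. Of 575 genes of X tested, 307 (53.4%) were higher and 68 lower, against 3944 (25.4%) higher and 3868 lower of 15558 autosomal genes. Relative to the mean of the 9 lines, the median X gene was at a log2 of 0.29 in mCdx2, 0.27 in rCdx2 and −0.11 to −0.04 in the mutants. The median log2 difference of intact against mutant lines was 0.36 over expressed X genes, where the autosomes ranged from −0.17 (chromosome 13) to 0.10 (chromosome 3). Against WT, the median X gene exceeded the median autosomal gene by 0.62 and 0.57 in the intact and by 0.16 to 0.27 in the mutant lines. Xist, the non-coding RNA that coats an inactive X (chromosome X, 103460366 to 103483254, minus strand), was at 74.3 and 95.3 CPM in mCdx2, at 69.8 and 101 CPM in rCdx2, at 1.64 to 8.44 CPM (median 3.11) in the mutants and at 4.52 CPM in WT. It was 17.8-fold higher (log2 4.15 ± 0.40, adjusted p 1.23e-05), so that both its level and that of X genes were higher. All 7 Rhox genes measured, homeobox genes in a cluster on X, were higher, 6 of them over 2-fold. Rhox5, the other, had overlapping libraries and a log2 difference of 0.67 in replicate 1 and 0.04 in replicate 2. On the autosomes alone, 1660 genes were higher and 609 lower over 2-fold, so the excess of higher genes (73.2%, against 74.2% over all chromosomes) did not rest on X.

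**Figure D5:**
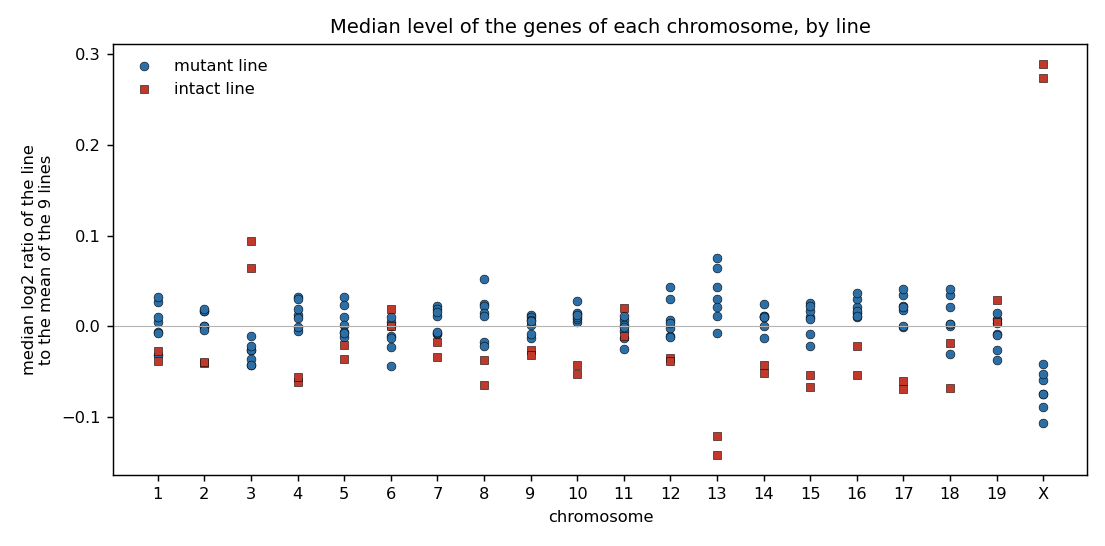
Median log2 ratio of each line to the mean of the 9 lines over the expressed genes of each chromosome (squares: intact lines; circles: mutant lines). On X both intact lines are at 0.27 and 0.29 and the mutant lines at −0.11 to −0.04.

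The largest differences beyond these lists, among genes with at least 50 counts per library, were of mixed kind. Csf1, the growth factor of macrophages, which is made in the pregnant uterus, was at 18.7 to 23.5 CPM in the intact and at 0.685 to 2.79 CPM in the mutant libraries (14.2-fold). The others that rose most were Myl4, a myosin light chain (11.2-fold), the adhesion receptor Adgra2 (9.91-fold), the iodide transporter Slc5a5 (9.17-fold), Shisa4 (8.69-fold) and the sulphate transporter Slc13a4 (8.66-fold). Ebf1, a factor of B cell development, fell most, at 0.0645 to 0.365 CPM against 3.09 to 6.92 CPM (log2 −4.38 ± 0.39, adjusted p 7.31e-06), with WT at 5.11 CPM, and its fold change rests on 1 to 8 counts in an intact library. Liph, a phospholipase, was at 3.46 and 2.97 CPM in mCdx2, at 3.39 and 3.50 CPM in rCdx2 and at 21.9 to 30.6 CPM (median 28.3) in the mutants, against 45.2 CPM in WT (log2 −3.07 ± 0.09, adjusted p 1.76e-08). Of the other falls, Osm, a cytokine of the Lif family, was at 0.365 to 0.645 CPM against 3.48 to 6.56 CPM. Pcolce and Ephx2 were 5.85-fold and 5.58-fold higher in the mutants and lay below WT in both sets. Trh was 11.2-fold higher in the mutants, a call that was lost without either intact line, with a spread among the mutant libraries of 4.04 to 37.0 CPM. Pudp, Crisp1, Trpm1, Rasgrp2, Sash3 and 1700097N02Rik were 5.56-fold to 9.54-fold higher in the mutants.

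The mutant lines with and without change 3 were also compared with the intact lines separately. Against the 4 lines with change 3 alone, 2822 genes differed over 2-fold among 15861 tested in both, and against the 3 lines without it 2610. Of these, 1915 were shared and in the same direction, 67.9% of the first and 73.4% of the second, with 1 gene in opposite directions. The intact lines serve in both comparisons.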

How the data were processed

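RNA-seq of mESCs was analysed in 18 libraries of 9 lines, with 2 WT libraries for reference. The authors aligned read pairs to mm10 with STAR 2.7.0d and counted them by strand on Ensembl genes without pseudogenes. The deposited values are raw counts. Replicate 1 and replicate 2 were counted in separate runs, which list 19919 and 34923 genes, and the 19919 shared genes were used. For ChIP-seq and ATAC-seq, the authors deposited counts of reads in peaks called with MACS2 on merged reads. The number of ChIP-seq reads was summed over both libraries, and an ATAC-seq peak was called opened or closed at over 2-fold with at least 40 scaled reads.

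Counts were summed per line, filtered with filterByExpr, scaled by TMM and tested with edgeR 4.0.16 (quasi-likelihood test, Benjamini-Hochberg adjustment, threshold 0.05) in R 4.3.3 with limma 3.58.1. DESeq2 1.42.0 was an alternative. Each SE is the log2 fold change divided by the root of its F value. The fits were tested on simulated data. The 2 libraries of a line, which may be technical repeats, differed by 3.02 to 9.05 times the variance of read sampling, and each line entered as 1 sample. Bounds, set against 3 counts per library, cover counting error only.

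The members and the gene lists were chosen with earlier results of these data known. Named were Cdx2, the 12 largest rises and falls past the threshold with at least 50 counts per library and 1 direction in both replicates, and list genes past the threshold. The Rhox genes, the chromosome X values and the list genes that did not pass were chosen after their values were seen. Alternatives were other normalisations, filters, tests, units, lines left out, and Cdx2 as a covariate. Gene positions are from GENCODE (16133 of 16357 symbols) and sequences from RefSeq, both on GRCm38. Other steps used Python 3.11.15, numpy 2.4.6, pandas 2.3.3, matplotlib 3.10.9 and samtools 1.23.1. Samples of rat-mouse allodiploid ES cells were not analysed here. A gene of the lists is not reported here.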

Additional observations from a re-analysis of the deposited data

Results flagged for a closer look

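In 4 of 147 genes examined, 1 of the 7 mutant lines lay far from the other 6, by a gap that chance gives in about 1 in 20 sets, so that 4 genes are fewer than chance would give. R23 had the highest Krt20 level of the mutant lines, 0.318 CPM against 0.0281 to 0.123 CPM in the others, below every intact library, which rests on 6 and 4 counts in its 2 libraries. R23 was also highest for Lamc1, at 662 CPM against 614 to 631 CPM, and for Cdkn2c, a cyclin-dependent kinase inhibitor, at 3.77 CPM against 3.07 to 3.36 CPM. R2 had the lowest level of Liph, 24.7 CPM against 27.3 to 29.2 CPM, still above the intact lines.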

How the results depend on the processing

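The number of genes called stayed within 1.5 times of the 8278 reported, except when the rCdx2 line was left out, which gave 5277 (2850 higher and 2427 lower). Leaving out each mutant line in turn gave 7693 to 8439 genes. Leaving out replicate 1 or replicate 2 of every line gave 7001 or 7644. In 340 or 62 of the reported genes the fold change then had the opposite sign, called or not. In these fits the genes higher ranged from 3627 to 4308 and the genes lower from 3374 to 4131. Over 2-fold there were 1905 to 2550, with 1436 to 1872 higher and 469 to 722 lower. With libraries as samples, 8641 genes were called without and 8686 with the replicate number as a block, and with construct means 9910 without and 10197 with the block. The replicate numbers were not taken to pair the samples, since differences between replicates correlated over 0.1 in 20 of 36 pairs of lines and not in all (−0.0803 to 0.416). Shifts between the replicates shared by lines exist all the same: in each of the 7 mutant lines Cdx2 was lower and Pou5f1 higher in replicate 2, and the replicates were also counted in separate runs. With the Cdx2 level as a covariate 10119 genes were called. Against the mutant lines with change 3 alone, an alternative added after the data were seen, Hoxa7 (log2 0.37) and Nanog (log2 −0.14) were called in the other direction. Of 3336 values of 147 genes under the alternatives, 3180 kept their side of the threshold, of which 20, from 7 genes that did not pass, changed sign, 118 lost the call, 36 gained it and 2 reversed. Genes risen against WT numbered 5695 at any fold and 628 over 4-fold, and fallen ones 6264 and 868. Within 10 kb the shares with a Cdx2 peak were 21.0% for higher, 25.9% for lower and 29.1% for all genes. The cause of these changes was not tested. Genes under a few counts per library, Isx included, are limited by depth.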
